A study of Mus musculus with 72 samples.

Results

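The comparison set livers of mice under arrhythmic feeding, in both of the study's arrhythmic groups together, against livers of mice under night-restricted feeding, all at zeitgeber time 18 (ZT18). Zeitgeber time counts hours from lights on in a day of 12 h light and 12 h dark, so that ZT18 is the middle of the dark phase, when mice are active. The members were the ZT18 libraries of 3 groups, 9 of the 72 libraries in the series: 3 from arrhythmic feeding, 3 from arrhythmic feeding in mice whose adaptation the labels call incomplete (incompletely adapted arrhythmic below), and 3 from night-restricted feeding. The rule took them by feeding label and time, with no measured value, although the comparison was picked with earlier results of these data known. All 9 came from male C57BL/6J wild-type mice that were 43 to 49 days old at the start, and by the labels the groups differed in feeding paradigm only. The other libraries covered the remaining 5 times of these paradigms and an ad libitum paradigm. The labels used here do not say how food was delivered in time or how adaptation was judged, nor whether each library is a separate animal. The p-values therefore speak to the spread among libraries only, estimated over all 72 of the series. By its title the study weighs the timing of food intake and the liver clock as sources of rhythmic transcripts, and the comparison shows which liver mRNAs differed with the food schedule at a single hour of the dark phase.

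Liver gene expression follows both a cell-autonomous clock and the fasting and feeding cycle. After a meal, insulin and nutrients raise the output of SREBP transcription factors, which drive the genes of cholesterol and fatty acid synthesis; INSIG1 is itself made from an SREBP target gene and holds the SREBP precursor in the endoplasmic reticulum (ER) as part of a feedback loop. Feeding also raises the load of secretory proteins in the hepatocyte ER, where the unfolded protein response, through XBP1 and ATF6, drives chaperone genes. TFRC, the transferrin receptor, brings transferrin-bound iron into cells, and its mRNA is stabilised by iron regulatory proteins when cellular iron is low.

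Promoter windows of 10 genes near the head of the comparison or of its cholesterol and ER groups were searched for sites named in textbooks for SREBP and unfolded protein response control. Manf and Sqle were also sought, but no window was available for them. The 3 windows that held an E-box or an ER stress response element are shown, so they were chosen for their matches. Each runs from 250 bases before to 50 bases after the RefSeq transcription start, 5′ to 3′ on the strand of the gene, from RefSeq with build GRCm38.p6. The window of Insig1 was chr5:28071162-28071461 on the plus strand, that of Hsd17b7, a sterol 3-ketoreductase of cholesterol synthesis, was chr1:169969156-169969455 on the minus strand, and that of Creld2, an ER-resident protein induced by ER stress, was chr15:88819396-88819695 on the plus strand. Capitals mark an E-box (CACGTG, a palindrome, read by both SREBP and clock factors) in Insig1 and Hsd17b7, and in Creld2 an ER stress response element (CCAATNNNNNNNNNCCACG), which lies on the opposite strand.
Insig1: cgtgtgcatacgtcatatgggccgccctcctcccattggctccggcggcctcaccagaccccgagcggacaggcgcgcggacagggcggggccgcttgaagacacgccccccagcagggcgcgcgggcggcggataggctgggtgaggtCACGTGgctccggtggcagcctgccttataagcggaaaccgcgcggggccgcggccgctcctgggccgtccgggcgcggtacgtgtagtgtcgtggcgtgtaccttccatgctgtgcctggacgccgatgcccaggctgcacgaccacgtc
Hsd17b7: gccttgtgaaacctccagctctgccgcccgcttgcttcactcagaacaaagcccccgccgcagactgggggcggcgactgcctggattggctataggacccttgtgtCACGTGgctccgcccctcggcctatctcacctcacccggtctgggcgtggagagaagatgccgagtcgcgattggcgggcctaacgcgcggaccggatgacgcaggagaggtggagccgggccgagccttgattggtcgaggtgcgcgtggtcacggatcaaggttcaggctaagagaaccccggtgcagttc
Creld2: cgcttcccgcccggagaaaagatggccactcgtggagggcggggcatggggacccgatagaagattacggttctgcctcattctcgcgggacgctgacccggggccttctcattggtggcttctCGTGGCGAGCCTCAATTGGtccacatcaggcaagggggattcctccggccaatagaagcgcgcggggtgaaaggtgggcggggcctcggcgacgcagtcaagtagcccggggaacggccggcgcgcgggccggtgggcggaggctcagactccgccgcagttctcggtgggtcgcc
The E-box began 101 bases before the start of Insig1 and 143 bases before that of Hsd17b7, and the ER stress response element began 126 bases before the start of Creld2. Both strands were searched. Of 32851 such promoter windows, 7.15% held the E-box and 0.119% the ER stress response element, which contains the CCAAT box that 37.4% of windows held. A sterol regulatory element, searched as the letters TCACNCCAC, found in 1.24% of windows, had no match in any window searched. The windows of the other 7 genes, Tfrc, Nat8f7, Slc35b1, Mgea5, Acer3, Dnajb11 and Sdf2l1, had no match to the E-box, the sterol element or the ER stress response element, although Slc35b1, Dnajb11 and Sdf2l1 belong to the ER groups. A match is a string of letters in a window and not a tested binding site.

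Depth was similar in the compared groups, with 6086574 to 7751940 counts per library in the 6 arrhythmic libraries and 5724327 to 7519759 in the 3 night-restricted libraries. Levels are given as CPM, the counts of a gene scaled to a common library total. The libraries were made by 3′ mRNA sequencing, in which a transcript gives about 1 fragment whatever its length, and no level is compared between genes. One library stood apart. The GC slope ran from -0.0412 to 0.192 in the 6 arrhythmic libraries and was 0.256, -0.138 and -0.088 in night-restricted replicates 1, 2 and 3, so that replicate 1 had the highest slope of the 9. The GC slope is the trend of a library's log2 levels, relative to the series mean of each gene, per SD of the GC content of transcript 3′ ends. Mitochondrial genes held 3.49% to 4.52% of counts in the arrhythmic libraries and 2.87%, 5.76% and 5.25% in night-restricted replicates 1, 2 and 3, with replicate 1 the lowest of the 9. Its TMM factor, which rescales the library total in the fitted fold changes, was also the lowest, 0.855 against 0.903 to 1.03 in the arrhythmic libraries. CPM leave this factor out, so replicate 1 reads lower in CPM than on the fitted scale. All statements of overlap are for CPM, and a narrow gap or overlap need not hold on the fitted scale. The called genes and the named genes that passed the threshold without replicate 1 are given with and without it. So are the medians of the ER, cholesterol, lipogenesis, heme and iron, acute phase and core clock lists, but not of the other lists. Hs1bp3 also passed without replicate 1, as the only gene on the higher side, and its values are not given here. Hepatocyte markers (8 genes) summed to 30600 to 41200 CPM in the 6 arrhythmic libraries, median 37500, and to 39000, 37300 and 37400 CPM in the night-restricted libraries. In bulk liver, fewer cells of a type and less RNA per cell cannot be told apart.

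Of 12712 genes tested, 3 were called between the 6 arrhythmic and the 3 night-restricted libraries at a Benjamini-Hochberg adjusted p under 0.05, which is 0.0236% of the genes, and all 3 fell under arrhythmic feeding. They were Insig1, Tfrc and Nat8f7. At an unadjusted p under 0.05, 5.59% of genes passed, 2.42% with higher and 3.18% with lower levels under arrhythmic feeding. The median log2 fold change over all genes tested was -0.03 and the median standard error (SE) was 0.32. Other edgeR and DESeq2 settings called from 0 to 27 genes, and limma-voom with quality weights called 355. In CPM, without the TMM factors, every arrhythmic library lay above every night-restricted library in 199 genes (1.57%), and every one lay below in 83 genes (0.653%).

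Insig1 (ENSMUSG00000045294.11, GRCm38 chr5:28071363-28078662, plus strand), the ER anchor of the SREBP precursor, had 47.6, 66.1 and 66.2 CPM in the arrhythmic livers and 62.5, 71.5 and 52.7 CPM in the incompletely adapted arrhythmic livers, against 76.3, 132 and 117 CPM in the night-restricted livers. All 6 arrhythmic libraries lay below all 3 night-restricted libraries, and the lowest night-restricted library was replicate 1. The mean was 61.1 ± 9.09 CPM (SD, n = 6) under arrhythmic and 109 ± 29 CPM (SD, n = 3) under night-restricted feeding. Insig1 fell to 0.562 of its night-restricted level (log2 fold change -0.83, SE 0.15, 95% interval -1.13 to -0.53, edgeR quasi-likelihood adjusted p = 0.0128). Without night-restricted replicate 1 the log2 fold change was -0.98 (adjusted p = 0.003). Over the 9 fits that each left out 1 library it ran from -0.98 to -0.70 and was called in 5, with adjusted p from 0.003 to 0.466. At much the same fold the call also ended in a fit of the compared libraries alone (-0.84, adjusted p = 0.999) and without a low-count filter (-0.84, adjusted p = 0.373).

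Tfrc (ENSMUSG00000022797.15, chr16:32608920-32632794, plus strand), the transferrin receptor, had 5.26, 7.22 and 8.68 CPM in the arrhythmic livers and 9.55, 6.97 and 7.23 CPM in the incompletely adapted arrhythmic livers, against 9.43, 37.6 and 29.1 CPM in the night-restricted livers. Night-restricted replicates 2 and 3 stood far above all others. In CPM replicate 1, at 9.43, lay just under the highest arrhythmic library, at 9.55. Their TMM factors, 0.855 and 1.01, put replicate 1 above that library on the fitted scale. The fitted Tfrc level fell to 0.298 of the night-restricted level (log2 fold change -1.75, SE 0.35, 95% interval -2.43 to -1.06, edgeR adjusted p = 0.028). Without replicate 1 the log2 fold change was -2.11 (adjusted p = 0.003), and this was the only one of the 9 fits with a library left out in which Tfrc was called. In the others it was -1.39 at the smallest, and the adjusted p reached 0.695. Tfrc was not called in a fit of the compared libraries alone (-1.76, adjusted p = 0.999) or without a low-count filter (-1.75, adjusted p = 0.0762).

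Nat8f7 (ENSMUSG00000089694.2, chr6:85706727-85713205, minus strand), a member of a cluster of N-acetyltransferase 8 related genes, had 1.9, 1.33 and 0.62 CPM in the arrhythmic livers and 2, 1.16 and 2.3 CPM in the incompletely adapted arrhythmic livers, against 4.02, 4.65 and 10.4 CPM in the night-restricted livers. The groups did not overlap, and the level was low throughout. Nat8f7 fell to 0.242 of its night-restricted level (log2 fold change -2.04, SE 0.38, edgeR adjusted p = 0.0128). It was called in 5 of the 9 fits with a library left out, where the log2 fold change ran from -2.27 to -1.52 and the adjusted p from 0.00788 to 0.501. Without night-restricted replicate 1 it was called at a log2 fold change of -2.23 (adjusted p = 0.00788). It was not called in a fit of the compared libraries alone (-2.04, adjusted p = 0.999). The Nat8f genes are close paralogs, so the assignment of reads to this gene is uncertain. Its neighbour Nat8f5 had 5.55, 16.5 and 12.1 CPM in the arrhythmic livers and 17.9, 8.64 and 11.3 CPM in the incompletely adapted livers, against 7.51, 63.6 and 47.7 CPM in the night-restricted livers, with replicate 1 again inside the arrhythmic range. Its log2 fold change was -1.70 (adjusted p = 0.362), and -2.17 without replicate 1 (adjusted p = 0.0413).

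**Figure D1:**
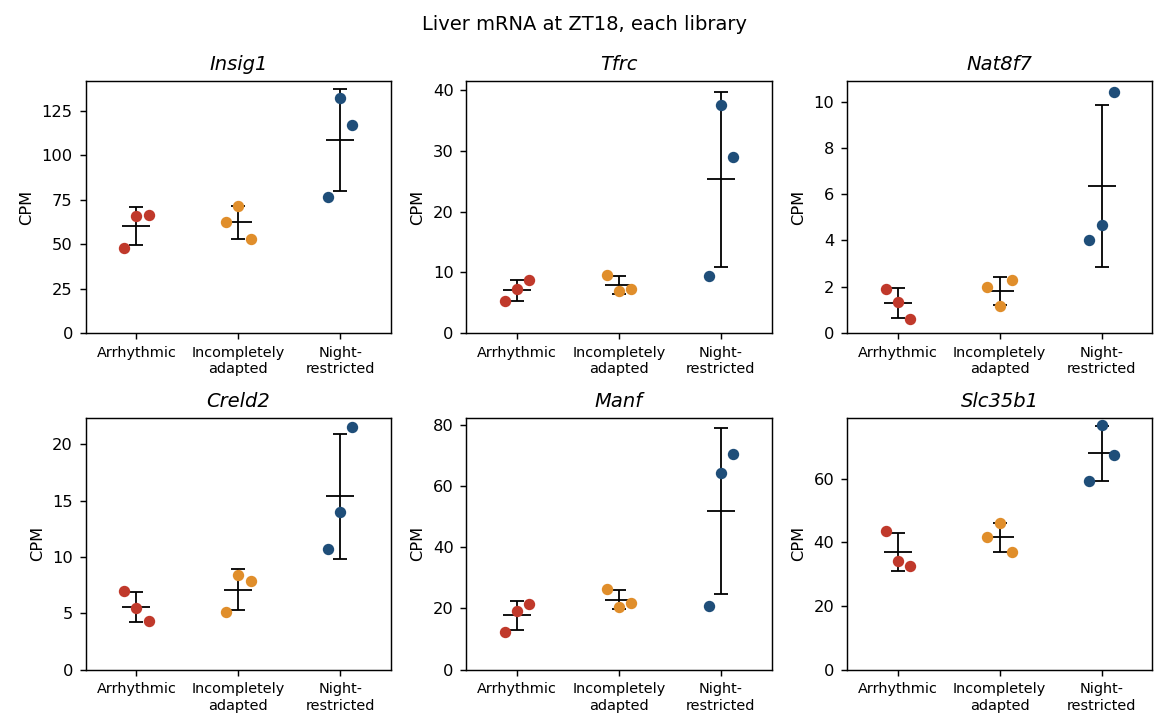
Level in CPM of Insig1, Tfrc, Nat8f7, Creld2, Manf and Slc35b1 in each of the 9 ZT18 libraries, arrhythmic in red, incompletely adapted arrhythmic in orange and night-restricted in blue, with the mean and SD of each group of 3. Insig1, Nat8f7, Creld2 and Slc35b1 show no overlap between the 6 arrhythmic and the 3 night-restricted libraries, whereas Tfrc and Manf each have 1 low night-restricted library, at 9.43 and 20.8 CPM.

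Several of the genes that came next in order of p, and missed the threshold, encode ER proteins. Creld2 (chr15:88819646-88826683, plus strand) had 7.01, 5.45 and 4.34 CPM in the arrhythmic livers and 5.08, 8.38 and 7.89 CPM in the incompletely adapted livers, against 10.7, 14 and 21.5 CPM in the night-restricted livers. All 6 arrhythmic libraries lay below all 3 night-restricted libraries (log2 fold change -1.27, SE 0.28, adjusted p = 0.082), and without replicate 1 the value was -1.43 (adjusted p = 0.0413). Slc35b1 (chr11:95384692-95391776, plus strand), which carries nucleotides across the ER membrane to supply the chaperone HSPA5 with ATP, had 43.7, 34.2 and 32.7 CPM in the arrhythmic livers and 41.7, 46.1 and 37.1 CPM in the incompletely adapted livers, against 59.4, 76.9 and 67.6 CPM in the night-restricted livers. Here too the groups did not overlap (log2 fold change -0.80, SE 0.17, adjusted p = 0.081). Manf (chr9:106838312-106891979, minus strand), a secreted ER stress-inducible factor, had 12.4, 19.3 and 21.4 CPM in the arrhythmic livers and 26.3, 20.4 and 21.9 CPM in the incompletely adapted livers, against 20.8, 64.2 and 70.5 CPM in the night-restricted livers. The annotated Manf locus overlaps other genes, so its reads are not certain to be its own. Replicates 2 and 3 of the night-restricted group were high and replicate 1 was not (log2 fold change -1.35, SE 0.31, adjusted p = 0.082). Without replicate 1 it was -1.70 with an adjusted p of 0.00828. Acer3, an alkaline ceramidase of the ER and Golgi, averaged 6.12 CPM under arrhythmic and 11.3 CPM under night-restricted feeding (log2 fold change -0.88, SE 0.20, adjusted p = 0.082). Replicate 1, at 7.34 CPM, lay just under the highest arrhythmic library, at 7.59 CPM. Their TMM factors, 0.855 and 0.926, put replicate 1 above that library on the fitted scale. Without replicate 1 the log2 fold change was -1.07 with an adjusted p of 0.0202. Slc35b1, Acer3 and Nat8f7 were singled out after their values were seen.

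Among genes of ER folding, the differences lay almost all on the same side. Of 25 tested ER chaperone and unfolded protein response genes, 22 had a log2 fold change below 0, 10 of them (40%) at an unadjusted p under 0.05, against 3.18% of all genes, and none passed in the other direction. None was called at an adjusted p under 0.05. The median of the list was -0.54 on the log2 scale, against -0.03 over all genes tested. Hspa5, the main ER HSP70 chaperone BiP, averaged 2140 CPM under arrhythmic and 3104 CPM under night-restricted feeding (log2 fold change -0.54, SE 0.22, adjusted p = 0.761). Its co-chaperones had values on the same side, with Dnajb11 at 47.6 against 77.9 CPM (-0.70, SE 0.18, adjusted p = 0.25), Dnajb9 at 27.6 against 43.8 CPM (-0.66, SE 0.31) and Sdf2l1 at 4.14 against 11 CPM with no overlap (-1.40, SE 0.39, adjusted p = 0.367). The nucleotide exchange factor Hyou1 had 27.4 CPM under arrhythmic and 48.7 CPM under night-restricted feeding, and the disulfide isomerase Pdia6 had 266 and 371 CPM. Among the sensors, Ern1, the kinase and nuclease that splices Xbp1 mRNA, averaged 21.1 CPM under arrhythmic and 29.1 CPM under night-restricted feeding (-0.46, SE 0.21), and Atf6 averaged 29.1 and 34.8 CPM (-0.26, SE 0.32). The transcription factor Xbp1 averaged 77.3 and 115 CPM (-0.59, SE 0.35). The 3 genes above 0 were Derl1, Herpud1 and Pdia4, with log2 fold changes of 0.09, 0.13 and 0.17.

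The neighbouring list of ER translocation, N-glycosylation and COP vesicle genes was similar in direction. Of 38 tested genes, 31 had a log2 fold change below 0, 10 (26.3%) passed an unadjusted p under 0.05 in that direction, against 3.18% of all genes, and none in the other, and none was called. The median was -0.32. Ssr2, a subunit of the translocon-associated complex, averaged 107 CPM under arrhythmic and 160.0 CPM under night-restricted feeding with no overlap (-0.61, SE 0.18, adjusted p = 0.488), and its partners Ssr1 and Ssr3 had log2 fold changes of -0.33 and -0.71. Spcs2, of the signal peptidase, averaged 59.1 and 86.6 CPM (-0.55, SE 0.17), Stt3a, a catalytic subunit of oligosaccharyltransferase, 12.6 and 20.2 CPM (-0.67, SE 0.26), and the COPI coat subunit Arcn1 10.6 and 16.4 CPM with no overlap (-0.66, SE 0.27). The translocation channel Sec61a1 averaged 1602 CPM under arrhythmic and 1653 CPM under night-restricted feeding (-0.07, SE 0.26), and the glycosylation subunits Rpn1 and Rpn2 had log2 fold changes of 0.05 and 0.06. Without night-restricted replicate 1 the medians of both ER lists were -0.60 and -0.51, with 12 and 14 members at an unadjusted p under 0.05 on the lower side. Without replicate 2 they were -0.43 and -0.18, with 6 and 5 such members, and without replicate 3 they were -0.44 and -0.29, with 7 and 4. Fits that took the GC slope as a covariate gave medians of -0.41 and -0.21, with 10 and 13 such members.

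**Figure D2:**
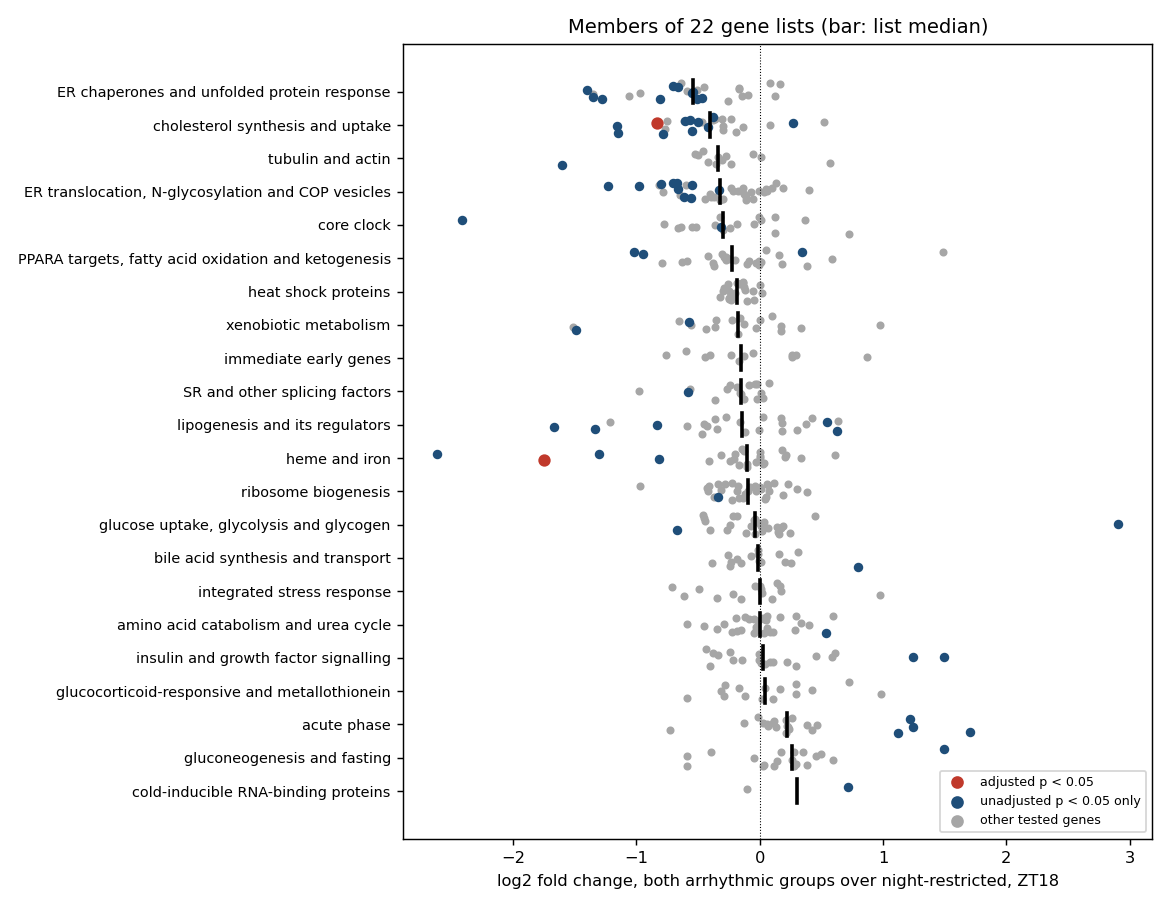
Log2 fold change, both arrhythmic groups over night-restricted at ZT18, of each tested member of 22 gene lists, ordered by the list median (black bar), with members at an adjusted p under 0.05 in red and members at an unadjusted p under 0.05 alone in blue. ER chaperones stand at the top with a median of -0.54, and red points appear only in the cholesterol list (Insig1) and the heme and iron list (Tfrc).

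In cholesterol synthesis and uptake, 23 of 26 tested genes had a log2 fold change below 0, and the list median was -0.40. An unadjusted p under 0.05 was passed by 10 genes (38.5%) on the lower side, against 3.18% of all genes, and by 1 (3.85%) on the higher side, against 2.42%. Of these only Insig1 was called. Hmgcs1, whose enzyme acts early in the pathway, averaged 399 CPM under arrhythmic and 606 CPM under night-restricted feeding (-0.61, SE 0.33, adjusted p = 0.934). Sqle, squalene epoxidase, averaged 32.5 CPM under arrhythmic and 71.9 CPM under night-restricted feeding, with no overlap (-1.15, SE 0.36, adjusted p = 0.571). Lss, which closes the sterol rings, averaged 15 and 25.6 CPM (-0.78, SE 0.25), Msmo1 285 and 432 CPM (-0.60, SE 0.20), and Hsd17b7 48.8 and 72.1 CPM with no overlap (-0.57, SE 0.18, adjusted p = 0.571). Nsdhl and Dhcr7, which act at late steps, also did not overlap, with log2 fold changes of -0.50 and -0.30.

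The regulators of the same pathway were spread. Srebf2, which encodes the main transcription factor of the cholesterol genes, averaged 27.5 CPM under arrhythmic and 36.4 CPM under night-restricted feeding (-0.42, SE 0.18, adjusted p = 0.819). Insig2, the paralog of Insig1 that in liver is raised by fasting, averaged 1231 CPM under arrhythmic and 834 CPM under night-restricted feeding (0.53, SE 0.31, adjusted p = 0.96), the opposite side to Insig1. Scap, the escort of the SREBP precursor, averaged 101 and 82.6 CPM (0.27, SE 0.14, adjusted p = 0.888). The list median was -0.42, -0.44 and -0.52 without night-restricted replicates 1, 2 and 3, and -0.43 in the fit with a GC slope term.

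Fatty acid genes did not share this direction as a list. Of 24 tested lipogenesis genes and regulators, 14 had a log2 fold change below 0, 3 (12.5%) passed an unadjusted p under 0.05 on the lower side and 2 (8.33%) on the higher side, against 3.18% and 2.42% of all genes, and none was called. The median was -0.14, and it was 0.15 without night-restricted replicate 1. Aacs, which activates acetoacetate for lipid synthesis, had 17.2, 40.5 and 13.8 CPM in the arrhythmic livers and 32.7, 29.8 and 22.3 CPM in the incompletely adapted livers, against 27.8, 95.7 and 76 CPM in the night-restricted livers (-1.34, SE 0.34, adjusted p = 0.25). Replicate 1 of the night-restricted group again lay inside the arrhythmic range, and without it the value was -1.67 (adjusted p = 0.0413). Srebf1 averaged 18.6 CPM under arrhythmic and 42.7 CPM under night-restricted feeding (-1.21, SE 0.63), Pnpla3, a triglyceride lipase family member and SREBP target, 3.68 and 10.7 CPM (-1.66, SE 0.65), and Fasn, fatty acid synthase, 2434 and 3417 CPM (-0.59, SE 0.45). The desaturases Fads1 and Fads2 averaged 627 and 66.3 CPM under arrhythmic feeding, against 418 and 41.9 CPM under night-restricted feeding (0.54 and 0.63, SE 0.23 and 0.30).

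In the heme and iron list, 4 of 25 tested genes (16%) passed an unadjusted p under 0.05 on the lower side, against 3.18% of all genes, and none on the higher side, and the list median was -0.10, near that of all genes. Besides Tfrc these were Ftl1, Alas1 and Cpox. Without night-restricted replicates 1, 2 and 3 the list median was -0.04, -0.11 and -0.10. In these fits 4, 1 and 2 members passed on the lower side, and 1 on the higher side without replicate 1. Alas1, whose enzyme limits the rate of heme synthesis, averaged 22.6 CPM under arrhythmic and 52.5 CPM under night-restricted feeding (-1.30, SE 0.52, adjusted p = 0.75), and Cpox, a later enzyme of the pathway, 97.4 and 174 CPM (-0.82, SE 0.36, adjusted p = 0.844). Ftl1, ferritin light chain, averaged 38.9 and 220 CPM (-2.61, SE 0.91, adjusted p = 0.634), but it has near-identical processed copies in the genome and its counts are uncertain. Fth1, ferritin heavy chain, averaged 1541 and 1637 CPM (-0.10, SE 0.14). Trf, transferrin itself, averaged 12872 and 13840 CPM (-0.13, SE 0.25), and Hamp, the iron hormone hepcidin, 533 and 338 CPM (0.61, SE 0.32, adjusted p = 0.933). The erythroid marker sum was 2050 to 2940 CPM in the 6 arrhythmic libraries and 4010, 2580 and 2840 CPM in the night-restricted libraries. The night-restricted library with the largest erythroid sum, replicate 1, was the one with the lowest Tfrc level.

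Of the 19 tested core clock genes none was called. Only 2 (10.5%, against 3.18% of all genes), Hlf and Npas2, passed an unadjusted p under 0.05, both on the lower side. The clock list median was -0.30, with 14 genes below 0 and 5 above, and it was -0.20 without night-restricted replicate 1 and -0.14 in the fit with a GC slope term. Hlf, a PAR bZIP output factor, had 53.2, 49.4 and 54.7 CPM in the arrhythmic livers and 50.2, 59.2 and 46 CPM in the incompletely adapted livers, against 61.8, 67.7 and 61.8 CPM in the night-restricted livers. The groups did not overlap in CPM, but the difference was small (log2 fold change -0.31, SE 0.15, adjusted p = 0.882). Nr1d2, the repressor REV-ERB beta, had 92.7, 76.6 and 86.8 CPM in the arrhythmic livers and 76.9, 83.8 and 76.4 CPM in the incompletely adapted livers, against 65.9, 60.9 and 61.5 CPM in the night-restricted livers. In CPM all arrhythmic libraries lay above all night-restricted ones (0.36, SE 0.25, adjusted p = 0.977). The gaps of Hlf and Nr1d2 need not hold on the TMM scale of the fold changes. Npas2, which pairs with BMAL1, was at the edge of detection, at 0 to 0.155 CPM in the 6 arrhythmic libraries and 0.282 to 0.532 CPM in the 3 night-restricted libraries.

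The negative arm of the clock showed wide spread. Per2 had 12.6, 16.9 and 28.8 CPM in the arrhythmic livers and 25.4, 34.1 and 12.7 CPM in the incompletely adapted livers, against 19.6, 45.3 and 46.2 CPM in the night-restricted livers (-0.78, SE 0.43, adjusted p = 0.934). Per1 averaged 10.5 CPM under arrhythmic and 6.22 CPM under night-restricted feeding (0.72, SE 0.38, adjusted p = 0.933), so that these paralogs lay on opposite sides of 0. Arntl, which encodes BMAL1, had 1.81 to 5.58 CPM in the 6 arrhythmic libraries, against 1.05, 8.24 and 7.04 CPM in the night-restricted livers (-0.64, SE 0.59). The repressors Cry1 and Cry2 had log2 fold changes of -0.24 and 0.01, and the output factors Tef and Dbp of -0.05 and -0.19. The sign of Cry2 turned with RLE scaling and with DESeq2 (-0.01 in both), and those of Tef and Dbp turned without night-restricted replicate 1 (0.21 and 0.06). Nr1d1, the repressor REV-ERB alpha, was at -0.52 with all libraries and at 1.04 without replicate 1.

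**Figure D3:**
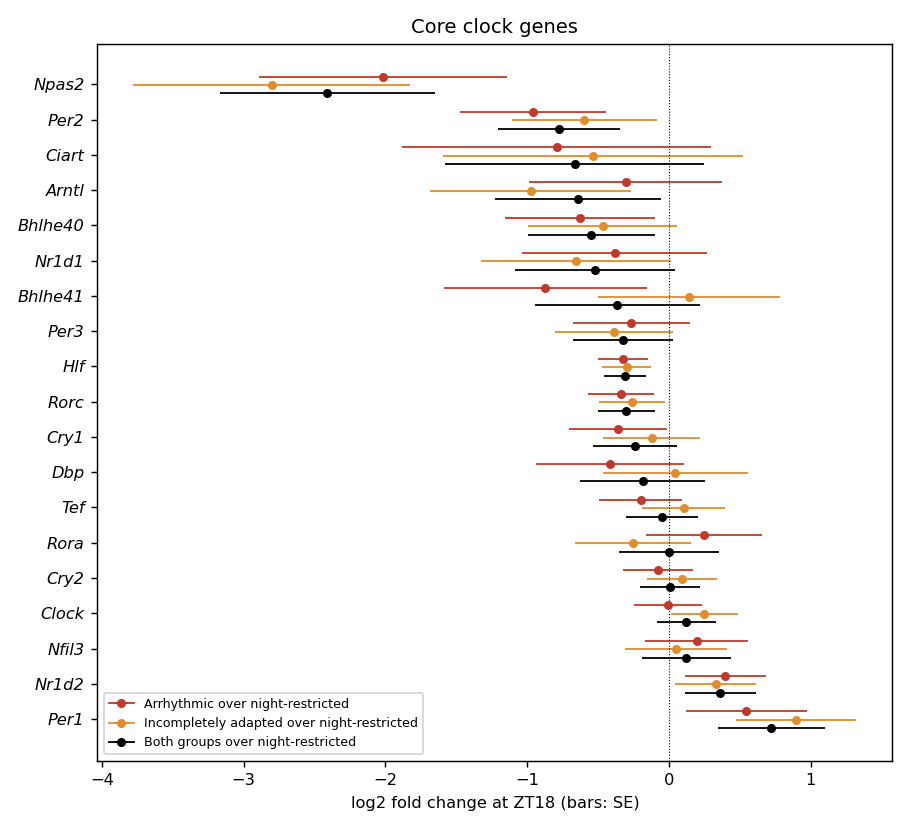
Log2 fold change with its SE of the 19 tested core clock genes at ZT18, for arrhythmic, incompletely adapted arrhythmic and both groups together, each over night-restricted feeding. The genes run from Npas2 at -2.41 to Per1 at 0.72 for both groups together, and none passed an adjusted p under 0.05.

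Genes on the higher side under arrhythmic feeding included none that was called. Igfbp1, an insulin-repressed hepatokine that binds insulin-like growth factors, had 54.8, 86.6 and 237 CPM in the arrhythmic livers and 55.8, 91.8 and 118 CPM in the incompletely adapted livers, against 30.7, 39 and 41.8 CPM in the night-restricted livers. Every arrhythmic library lay above every night-restricted library, but the 6 ranged widely (1.49, SE 0.54, adjusted p = 0.664). It was the only one of 19 tested gluconeogenesis and fasting genes (5.26%) at an unadjusted p under 0.05, against 2.42% of all genes on the higher side. The list median was 0.26. Pck1, the gluconeogenic enzyme PEPCK, averaged 336 CPM under arrhythmic and 254 CPM under night-restricted feeding (0.30, SE 0.84), and G6pc, glucose-6-phosphatase, 41.8 and 62.9 CPM (-0.59, SE 0.35). Ppp1r3g, a glycogen-targeting subunit of protein phosphatase that is known to rise in fasted mouse liver, had 6.57, 17.7 and 2.48 CPM in the arrhythmic livers and 5.39, 1.55 and 4.27 CPM in the incompletely adapted livers, against 0.873, 0.399 and 0.986 CPM in the night-restricted livers. The groups did not overlap (2.91, SE 0.75, adjusted p = 0.282). Gys2, liver glycogen synthase, averaged 56.1 CPM under arrhythmic and 88.6 CPM under night-restricted feeding (-0.67). Of 28 tested genes of glucose uptake, glycolysis and glycogen, only Ppp1r3g and Gys2 had an unadjusted p under 0.05. That is 3.57% on each side, against 2.42% of all genes higher and 3.18% lower, and the list median was -0.04.

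Among genes of fatty acid oxidation and the PPARA program, 2 of 28 tested (7.14%) had an unadjusted p under 0.05 on the lower side and 1 (3.57%) on the higher side, against 3.18% and 2.42% of all genes, and the list median was -0.22. Acadm, the medium-chain acyl-CoA dehydrogenase, had 32 to 58.1 CPM in the 6 arrhythmic libraries, against 45.2, 152 and 99.7 CPM in the night-restricted livers. The log2 fold change was -1.02 (adjusted p = 0.727), and -1.33 without replicate 1, the library inside the arrhythmic range (adjusted p = 0.304). The heat shock list (21 tested) and the integrated stress response list (15 tested) had no gene at an unadjusted p under 0.05 in either direction, with medians of -0.18 and 0.00. Cirbp, a cold-inducible RNA-binding protein whose level follows body temperature, had 28.9, 25 and 20.5 CPM in the arrhythmic livers and 24.2, 18.6 and 25.1 CPM in the incompletely adapted livers, against 18.7, 11.2 and 12.4 CPM in the night-restricted livers (0.71, SE 0.27, adjusted p = 0.717). Of the night-restricted libraries, replicate 1 lay just inside the arrhythmic range and the other 2 below it.

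Acute phase genes lay mostly above 0, with 19 of 22 log2 fold changes positive, a median of 0.22, 4 (18.2%) at an unadjusted p under 0.05 on the higher side, against 2.42% of all genes, and none called. The median was 0.426, 0.105 and 0.245 without night-restricted replicates 1, 2 and 3, with 6, 3 and 2 such members. Il1rn, the interleukin 1 receptor antagonist, had 4.67, 12.1 and 10.1 CPM in the arrhythmic livers and 12.3, 7.35 and 6.08 CPM in the incompletely adapted livers, against 4.37, 3.46 and 3.94 CPM in the night-restricted livers (1.12, SE 0.36, adjusted p = 0.577). The groups did not overlap in CPM, but the lowest arrhythmic library lay close to the night-restricted ones, and the gap need not hold on the TMM scale. Saa2, serum amyloid A2, had 32.1, 18.9 and 63.7 CPM in the arrhythmic livers and 441, 40.4 and 73.9 CPM in the incompletely adapted livers, against 28.8, 18 and 26.8 CPM in the night-restricted livers. Saa1 and Saa2 are nearly identical in sequence, so reads may be split between them. Marker sums of immune cells stood beside these values. The T and NK cell sum ran from 3.65 to 7.06 CPM in the 6 arrhythmic libraries, against 2.8, 3.06 and 2.53 CPM in the night-restricted ones, but only 2 of its 8 genes, Gzma and Trbc2, passed the low-count filter. The B and plasma cell sum was 10.9 to 29.6 CPM against 5.76, 6.78 and 14.5 CPM, with Cd79a at 0 in all 9 libraries, and the neutrophil sum was 3.35 to 5.42 CPM against 4.54, 2.93 and 2.96 CPM, with Mpo and Ly6g at 0. The Kupffer cell sum was 965 to 1740 CPM against 1210, 753 and 952 CPM. Their part in the acute phase values was not tested. Of the 22 pathway lists, 2 held a called gene, 15 had a median below 0 and 7 above 0, and the medians ran from -0.54 to 0.31.

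Each arrhythmic group was also set against night-restricted feeding on its own, with the same 3 night-restricted libraries in both comparisons. Neither had a called gene. The smallest adjusted p was 0.0945 for arrhythmic and 0.546 for incompletely adapted arrhythmic feeding, and an unadjusted p under 0.05 was passed by 4.67% of genes (2.23% higher, 2.44% lower) under arrhythmic and by 4.23% (2.07% higher, 2.16% lower) under incompletely adapted arrhythmic feeding. In the arrhythmic and incompletely adapted comparisons DESeq2 called 6 genes and 1 (Saa2), edgeR with the GC slope as a term called 14 and 0, and limma-voom with quality weights called 38 and 1138, so that which group had more calls depended on the method. Insig1 had log2 fold changes of -0.88 (SE 0.18) and -0.78 (SE 0.18) in the arrhythmic and incompletely adapted comparisons, Tfrc of -1.86 (SE 0.43) and -1.64 (SE 0.43), Nat8f7 of -2.30 (SE 0.48) and -1.79 (SE 0.47), Creld2 of -1.47 (SE 0.35) and -1.08 (SE 0.34), and Slc35b1 of -0.91 (SE 0.21) and -0.70 (SE 0.21). The medians of the ER chaperone list were -0.58 and -0.46, and those of the cholesterol list -0.50 and -0.45. The night-restricted libraries enter both columns of values, so their likeness is not independent evidence.

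Incompletely adapted arrhythmic livers were compared with arrhythmic livers directly, and no gene was called by edgeR (smallest adjusted p 1, with 2.11% of genes at an unadjusted p under 0.05, 1.14% higher and 0.968% lower) or by DESeq2. The median SE of this difference was 0.37 on the log2 scale. For the 3 called genes the 95% intervals of the difference, incompletely adapted minus arrhythmic, were -0.26 to 0.46 for Insig1, -0.64 to 1.07 for Tfrc and -0.49 to 1.52 for Nat8f7. These intervals include 0, but those of Tfrc and Nat8f7 also include a doubling, so the data do not show that the groups were alike. Saa2 had the most uneven values, with a difference of 2.28 (95% interval 1.02 to 3.53), which missed the threshold after adjustment and rests on the single library at 441 CPM. Rhob, which encodes a small GTPase and was called in this comparison by limma-voom with quality weights alone, had 21.6, 27.1 and 18.9 CPM in incompletely adapted livers and 14.6, 10.3 and 16.3 CPM in arrhythmic livers.

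Whether the ZT18 differences were those of the whole day was tested by setting the difference at ZT18 against the mean of the same difference at the other 5 times. For this contrast 5 genes (0.0393% of those tested) passed an adjusted p under 0.05, 1 above (0.00787%) and 4 below (0.0315%), and 13.2% passed an unadjusted p under 0.05 (4.68% above, 8.5% below). The 4 below were Tfrc, Insig1, Acer3 and Manf, and the gene above was Mgea5, the O-GlcNAcase that removes O-GlcNAc from proteins. Nat8f7 did not pass (-1.15, SE 0.47, adjusted p = 0.278).

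Tfrc gave the clearest value in this contrast, with a ZT18 difference of -2.50 log2 units relative to the other times (SE 0.39, adjusted p = 0.000458). Arrhythmic livers had mean Tfrc levels of 11.7, 22.1, 21.6, 19.7, 7.05 and 15.2 CPM from ZT02 to ZT22 in steps of 4 h. Incompletely adapted livers had 16.1, 19.5, 21.9, 34, 7.92 and 13.6 CPM, and night-restricted livers had 4.87, 3.24, 12.1, 44.9, 25.4 and 14.5 CPM (3 libraries at each time). The lowest of the 6 means was at ZT18 in both arrhythmic groups, and at ZT06 in the night-restricted group. At ZT02 and ZT06 both arrhythmic means lay above the night-restricted mean, and at ZT14 and ZT18 below it. Ad libitum livers at ZT18 had 16.4 ± 0.286 CPM of Tfrc (SD, n = 3).

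Insig1 had a ZT18 difference of -0.90 relative to the other times (SE 0.17, adjusted p = 0.0119). Its means were 71.1, 107, 78.4, 76.3, 60 and 59.4 CPM in arrhythmic livers, 78.5, 102, 93.7, 81.6, 62.3 and 61.5 CPM in incompletely adapted livers and 85.1, 57.3, 51.8, 76.7, 109 and 97.5 CPM in night-restricted livers, in the same order of times. The highest Insig1 mean was thus at ZT06 in both arrhythmic groups and at ZT18 in the night-restricted group. Manf differed by -1.61 (SE 0.34, adjusted p = 0.0401), with means of 32.2, 37.5, 20.8, 22.8, 17.7 and 35.2 CPM in arrhythmic livers, 48.7, 33.2, 25.7, 25.8, 22.9 and 34.1 CPM in incompletely adapted livers and 22.4, 14.6, 17.2, 45, 51.9 and 35.2 CPM in night-restricted livers. Acer3 differed by -1.14 (SE 0.22, adjusted p = 0.0119), and at ZT18 arrhythmic and incompletely adapted livers had 6.32 ± 1.22 and 5.93 ± 1.44 CPM, against 11.3 ± 3.51 CPM in night-restricted livers (SD, n = 3 each), the highest night-restricted mean of the day.

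Mgea5 (chr19:45750259-45783837, minus strand) was the gene on the opposite side. At ZT18 it had 36.2, 42.7 and 40.9 CPM in the arrhythmic livers and 48.8, 42.6 and 37.1 CPM in the incompletely adapted livers, against 28.5, 25 and 27.2 CPM in the night-restricted livers. The groups did not overlap, and all 3 night-restricted libraries, replicate 1 included, were low. The ZT18 difference alone was not called (0.59, SE 0.15, adjusted p = 0.225), but relative to the other times it was 0.76 (SE 0.16, adjusted p = 0.0401). Means lay between 37.2 and 42.3 CPM at all 6 times in arrhythmic livers and between 36.9 and 42.8 CPM in incompletely adapted livers, while night-restricted livers had 40.7, 49.5, 53.5, 36.5, 26.9 and 29.7 CPM from ZT02 to ZT22. An antisense gene overlaps the locus, and whether the counting used strand is not given in the sources used here.

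**Figure D4:**
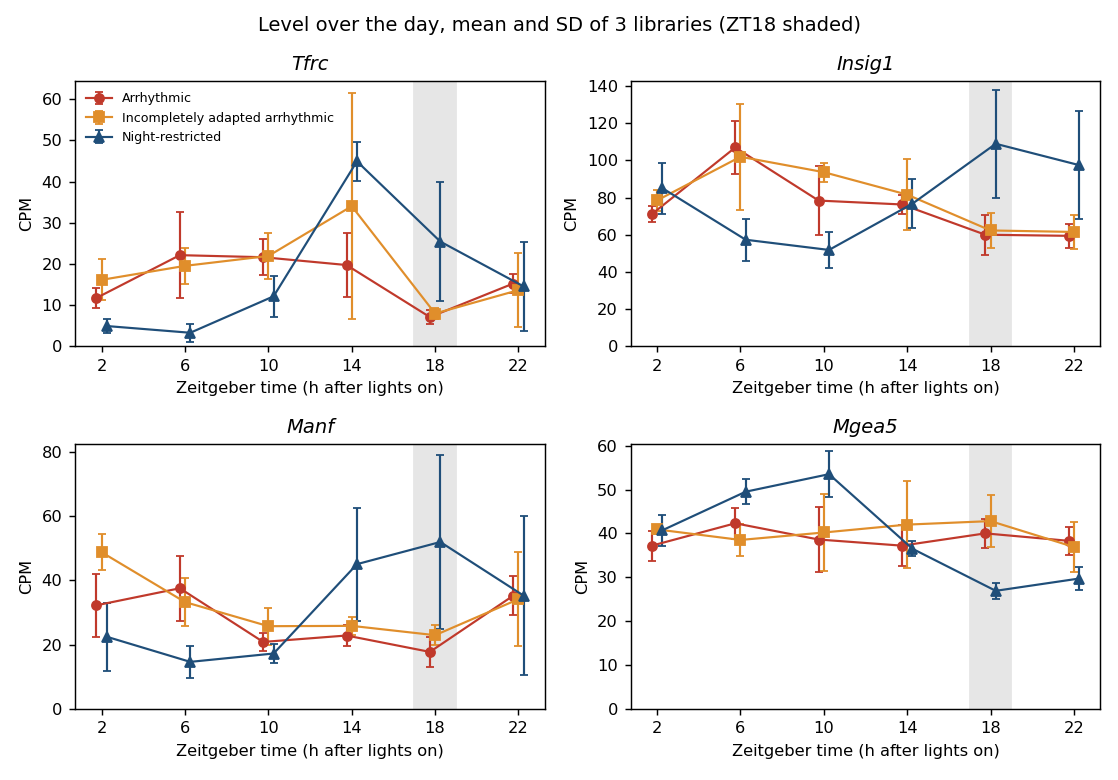
Mean level in CPM with SD (3 libraries) of Tfrc, Insig1, Manf and Mgea5 over the 6 zeitgeber times, in hours, for arrhythmic, incompletely adapted arrhythmic and night-restricted feeding, with ZT18 shaded. At ZT18 both arrhythmic lines lie below the night-restricted line for Tfrc (7.05 and 7.92 against 25.4 CPM), Insig1 and Manf and above it for Mgea5, and at ZT06 the sides are the other way round.

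These ZT18 contrasts rest on few libraries. With a library left out, Tfrc passed in 8 of 9 fits of the contrast against the other times (log2 difference -2.87 to -2.15, adjusted p 0.0701 without night-restricted replicate 2), Insig1 in 6 (-1.06 to -0.78), Acer3 in 5 (-1.33 to -1.01), Mgea5 in 3 (0.67 to 0.88) and Manf in 2 (-1.96 to -1.34). Only ZT18 libraries were left out, but night-restricted replicate 1 also had GC slopes of 0.349, 0.337 and 0.4 at ZT02, ZT06 and ZT22. With the GC slope as a covariate in edgeR, Tfrc was at -1.98, Insig1 at -0.82, Acer3 at -0.94 and Mgea5 at 0.70, all called. Manf, at -1.20, was not called (edgeR adjusted p = 0.0522). Without the 4 libraries of highest GC slope all 5 were called, at -2.75, -1.01, -1.33, 0.805 and -1.78 in that order. The number of genes called in this contrast was 264 without night-restricted replicate 1 and 0 without replicate 2. In the ZT18 comparison itself it was 9 (1 higher, 8 lower) without replicate 1, 1 without replicate 2 and 0 without replicate 3.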

How the data were processed

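Liver 3′ mRNA-seq libraries (Lexogen QuantSeq, per the labels' protocols) were used as the raw read counts per Ensembl gene that the authors deposited, for 51912 genes; 51633 had a symbol in GENCODE M21. Reads were aligned with STAR 2.4.2a to mm10 and GRCm38.p5, per the submitters' processing notes. For the counting tool, annotation release and strand setting nothing is stated in the sources used here. The second deposited table was not used. All columns were assigned to samples, and no other columns were left out (0).

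Low counts were removed by filterByExpr, given the 24 paradigm-by-time groups (12712 genes kept), scaled by TMM and fitted as group means over all 72 libraries with edgeR 4.0.16 (robust quasi-likelihood F test, R 4.3.3, limma 3.58.1), so that all groups shared an estimate of the spread. Both arrhythmic groups weighed the same in their mean. Calls used a Benjamini-Hochberg adjusted p under 0.05 over all genes tested. CPM in the text are counts per library total, whereas fold changes came from the TMM-scaled fit. All 95% intervals are the log2 fold change ± 1.96 SE. The GC slope used genes over 5 CPM, the last 500 bases of the longest transcript and a prior count of 2. Levels near 0 carry counting error, and 3′ reads of paralogs or overlapping genes can be misassigned. The fitting script was tested on simulated counts.

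The members, gene lists (22 pathway lists and 13 cell type lists) and named genes were chosen with earlier results of these data known. The rule for named genes took called genes with at least 10 CPM and no overlap (up to 12 in each direction), up to 4 called genes per list or else the gene of smallest p, all tested clock genes, and genes called in the contrasts between the arrhythmic groups and between times (up to 5 in each direction). Other named genes were chosen after their values were seen. Alternatives numbered 20, of which 18 were planned, among them DESeq2 1.42.0, other scaling, no filter, GC slope and replicate terms and each library left out.

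Replicate numbers were checked for pairing through the correlation of deviations from the group means, since the labels tie a number to no shared animal, day or batch. Same-numbered arrhythmic and night-restricted libraries correlated at 0.562, 0.442 and 0.165, all over 0.1, and fits with a replicate block were run as alternatives. A pairing is not shown, since over all pairs of groups 9 of 18 correlations between differently numbered libraries were also over 0.1. Arrhythmic replicate 3 correlated at 0.439 with night-restricted replicate 2, above its 0.165 with replicate 3. In the other pairs of groups no same-numbered correlation was above 0.1 (-0.638 to -0.0481).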

Additional observations from a re-analysis of the deposited data

Results flagged for a closer look

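In 5 of 54 named genes examined, 1 of the 6 arrhythmic libraries at ZT18 lay far from the other 5. The gap was above the 95% critical value of Dixon's test (0.625 of the range), which chance passes in about 1 of 20 groups of normally distributed values. That rate does not carry over here, since CPM were used without a log scale and Saa2 and Sept11 were named after their values were seen. Ppp1r3g stood at 17.7 CPM in arrhythmic replicate 2. In arrhythmic replicate 3, Igfbp1 stood at 237 CPM, Gls2, the liver-type glutaminase, at 1040 CPM and the septin gene Sept11 at 20.9 CPM. Saa2 stood at 441 CPM in incompletely adapted arrhythmic replicate 1.

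For 5 genes the difference between the arrhythmic groups and night-restricted feeding at ZT18 differed, by the test of that contrast, from the mean difference at the other 5 times. On the log2 scale this was -2.5 for Tfrc, -0.9 for Insig1, -1.61 for Manf, -1.14 for Acer3 and 0.762 for Mgea5. At ZT18 each of these genes except Mgea5 had lower fitted levels in both arrhythmic groups, and Mgea5 had higher ones.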

How the results depend on the processing

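The sign of the log2 fold change of the 3 called genes held in all 20 alternatives, but the number of called genes depended on the processing, and the cause was not tested. In order, the counts are for both arrhythmic groups together, arrhythmic alone and incompletely adapted alone, each against night-restricted feeding, then for ZT18 against the other 5 times. They were 3 (0 higher, 3 lower), 0, 0 and 5 (1 higher, 4 lower) as reported. DESeq2 gave 11 (3 higher, 8 lower), 6, 1 and 26 (7 higher, 19 lower). Limma-voom with quality weights gave 355 (168 higher, 187 lower), 38, 1138 and 2947 (1263 higher, 1684 lower). The same without night-restricted replicate 1, an alternative chosen after seeing the data, gave 859 (335 higher, 524 lower), 48, 1892 and 3533 (1482 higher, 2051 lower). Both voom fits called 1 gene between the arrhythmic groups. RLE scaling, which put the median of all genes at -0.05 for both arrhythmic groups, gave 3 genes and, against the other times, 4 (0 higher). Without a low-count filter 1 gene, lower, was called in each of these. Fits of the compared libraries alone called 0 and 2 (both lower). With the GC slope as a covariate there were 24 (6 higher, 18 lower), 14, 0 and 13 (12 lower). Without the 4 libraries of highest GC slope, also chosen after seeing the data and all night-restricted replicate 1, there were 16 (6 higher, 10 lower), 10, 0 and 27 (10 higher, 17 lower). With each of the 9 libraries left out in turn the counts ran from 0 to 9 (higher 0 to 1, lower 0 to 8), 0 to 4, 0 to 0 and 0 to 264 (higher 0 to 81, lower 0 to 183), and 0 between the arrhythmic groups.

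The correlation check did not show that replicate numbers pair the libraries, and 4 of 18 library comparisons were best with the own number. With a replicate block the arrhythmic comparison had 0 called genes, as without it. For both arrhythmic groups and for the contrast between times the block gave 3 and 5 called genes (1 of the 5 higher), 0 and 3 (0 higher) in the compared libraries alone, and with the GC slope 27 (6 higher, 21 lower), 18, 0 and 18 (2 higher, 16 lower).

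Over the named genes and settings, 1010 values kept direction and side of the threshold, 77 passed it newly, 56 no longer passed it and 31 values of 9 uncalled genes changed direction. Rora, at -0.00178, was 0.101 and 0.0954 with the GC slope, alone and with the block, 0.000704 with the block in the compared libraries and -0.202 to 0.366 with a library left out. Cry2, at 0.0079, was -0.00711 with RLE, -0.00529 with DESeq2, -0.0544 and -0.054 with the GC slope, alone and with the block, and -0.123 to 0.181 with a library left out. Tef, at -0.0467, was 0.17 and 0.227 with voom, with and without night-restricted replicate 1, 0.22 without the 4 libraries of highest GC slope and -0.179 to 0.208 with a library left out. Nr1d1, at -0.518, was 1.05 without these 4 libraries, 0.0458 in voom without replicate 1 and -0.957 to 1.04 with a library left out (1.04 without replicate 1). Dbp, at -0.185, was 0.0717 without the 4 libraries and -0.447 to 0.0598 with a library left out. With a library left out Clock ran from -0.0177 to 0.297, Bhlhe41 from -0.931 to 0.233 and Nfil3 from -0.0923 to 0.257, and Rhob was 0.019 with voom. Depth limits genes of few CPM such as Npas2 and Nat8f7.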
